A study of Mus musculus with 8 samples.

Results

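Glucose uptake, lactate transport and the fate of pyruvate were followed through 10 genes in PER-M60, a leukaemia cell line of the mouse. The genes were Slc2a1, Slc2a3, Slc16a1, Slc16a3, Bsg, Ldha, Ldhb, Pdk1, Pdk3 and Mpc2. They were taken by symbol from the 21859 gene IDs of the count table, through the GENCODE M21 annotation of the mouse genome GRCm38, and all 10 were found with 1 ID each. Of these, 9 passed the filter on low counts, among 10729 genes that passed in all, and Ldhb did not.

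RNA was sequenced from 4 PER-M60 cultures in control medium and from 4 in osteoclast-conditioned medium (conditioned medium below). Conditioned medium is medium taken off other cells, here osteoclasts, which are the multinucleated cells that break down bone. All 8 cultures are the same cell line, and their labels differ only in the medium and the replicate number. The labels give no culture time, no composition of the media and no statement of how the osteoclasts were obtained. The design counts 4 cultures per medium without saying whether they were set up independently, so p-values measure the spread between these samples, which may be technical.

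A cell takes up glucose through facilitative transporters of the SLC2A (GLUT) family and breaks it down to pyruvate by glycolysis. Pyruvate can be reduced to lactate by lactate dehydrogenase, which restores the NAD+ that glycolysis needs, and lactate then leaves with a proton through the monocarboxylate transporters of the SLC16A (MCT) family. Alternatively it enters the mitochondrion through the mitochondrial pyruvate carrier and is oxidised by the pyruvate dehydrogenase complex, which the pyruvate dehydrogenase kinases switch off by phosphorylation. Proliferating leukaemia cells are known for a high use of glucose with release of lactate.

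Totals ran from 15391754 to 21637966 counts per library, so that 3 counts, taken as the limit that a count of 0 allows, corresponded to between 0.138 and 0.194 CPM (counts relative to library size, here scaled by TMM and called normalised CPM). Such limits cover counting error only. Markers of the B lineage were abundant in both media, and the 3 named were called higher in conditioned medium: Vpreb1 (345.5 ± 19.7 against 384.1 ± 7.77 normalised CPM, SD, n = 4 each), Cd79a (515.1 ± 9.28 against 571.7 ± 11.2) and Ptprc (430.6 ± 4.10 against 477.2 ± 7.42). Of 11 osteoclast markers, 3 passed the filter (Nfatc1, Itgb3 and Acp5) and made up nearly all of the sum (128.1 to 134.8 against 139.2 to 145.1). Nfatc1 was called higher, and Acp5 had a log2 fold change of 0.08 (SE 0.06). Itgb3 was called lower, but not without control replicate 1 or 3, with DESeq2 (adjusted p = 0.0505) or at an adjusted p under 0.01. The defining markers Ocstamp and Dcstamp had 0 counts in every library, Ctsk at most 5, and Calcr and Atp6v0d2 at most 1. The 8 macrophage markers summed to 20.8 to 22.21 and 21.47 to 25.21. Most of that sum was Mrc1 (14.35 ± 0.413 against 14.75 ± 0.993 normalised CPM, SD, n = 4 each), which was not called, nor was Cd68 (2.11 ± 0.372 against 2.13 ± 0.175). Lyz2 was called higher (4.46 ± 0.406 against 5.91 ± 0.865), but not without conditioned replicate 2, and C1qa was at 0. The 5 T-cell markers found summed to at most 0.175. The part of these markers in the results was not tested.

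Transcripts of Slc16a3 (lactate export), Slc2a1 (glucose uptake) and Ldha (lactate formation) fell most in conditioned medium. With edgeR's quasi-likelihood test and Benjamini-Hochberg adjustment over all tested genes, at an adjusted p under 0.05, 7 of the 9 genes that passed the filter were called lower, while 14.8% of all tested genes were called lower (30.5% in either direction). The 7 were Slc16a3, Ldha, Slc2a1, Pdk3, Bsg, Pdk1 and Slc16a1, with percent changes from -39.5% (Slc16a3) to -5.8% (Slc16a1). None was called higher by edgeR, DESeq2 or limma-voom (0 of 9; 0 also at an unadjusted p under 0.05), where edgeR called 15.7% of all tested genes higher. The median log2 fold change of the 9 genes was -0.17, beside -0.01 over all tested genes. These genes and the lists below were chosen with earlier results of these data known, so such counts are not a test of the set. The lowest control sample lay above the highest conditioned sample in the same 7 genes, a separation that 12.9% of all tested genes showed (28.2% in either direction). In bulk RNA, fewer cells that express a gene and less RNA per cell cannot be told apart.

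**Figure D1:**
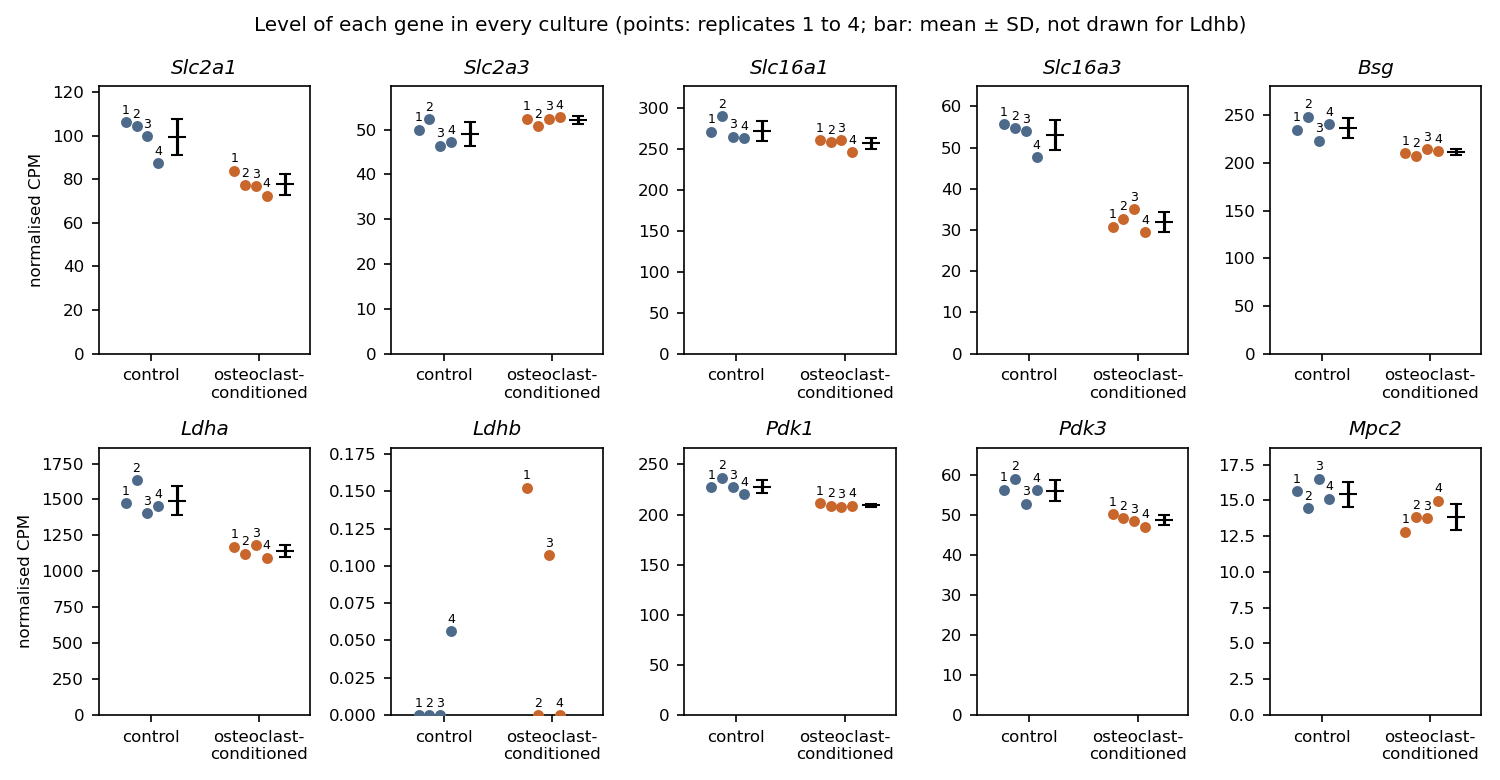
Normalised CPM (vertical axes, starting at 0) of each of the 10 genes in the 4 control and 4 conditioned cultures. Points are single cultures numbered by replicate and bars are means with the SD; in 7 panels all conditioned cultures lie below all control cultures, in Slc2a3 and Mpc2 the media overlap, and Ldhb is at 0 to 3 counts.

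Because 7 of the genes were called in the same direction, the bases just before the transcription starts were searched, and those of 4 called genes are shown. RefSeq promoter windows (build GRCm38.p6) were at hand for 8 of the 10 genes, Slc2a3 and Bsg not being in the table. In each window the 250 bases before the start were searched on both strands for ACGTG and GCGTG, the cores bound by hypoxia-inducible factors, for CACGTG, the E-box bound by MYC and related factors, and for TGATGNAA, the element bound by ATF4 with C/EBP proteins. CACGTG holds ACGTG on both strands, so each CACGTG adds 2 matches to the ACGTG count. The windows printed are those of the called genes that fell most, Slc16a3, Ldha (both starts) and Slc2a1, with that of Slc16a1, the called gene that fell least, for contrast. All are on the plus strand and run 5′ to 3′ up to the base before the start, with both kinds of core in capitals on whichever strand they lie (CACGT and CACGC are their reverse complements).
Slc16a3, chr11:120948817-120949066: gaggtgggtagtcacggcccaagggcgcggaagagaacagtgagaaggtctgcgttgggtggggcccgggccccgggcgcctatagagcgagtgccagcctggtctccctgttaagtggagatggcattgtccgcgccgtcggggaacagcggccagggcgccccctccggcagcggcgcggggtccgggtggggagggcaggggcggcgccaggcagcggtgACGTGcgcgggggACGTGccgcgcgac
Ldha start 1, chr7:46845554-46845803: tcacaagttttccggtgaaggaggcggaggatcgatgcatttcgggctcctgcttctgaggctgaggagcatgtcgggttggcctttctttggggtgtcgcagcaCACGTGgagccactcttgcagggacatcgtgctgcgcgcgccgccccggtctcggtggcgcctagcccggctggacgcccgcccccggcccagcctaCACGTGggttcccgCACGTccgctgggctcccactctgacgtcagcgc
Ldha start 2, chr7:46846832-46847081: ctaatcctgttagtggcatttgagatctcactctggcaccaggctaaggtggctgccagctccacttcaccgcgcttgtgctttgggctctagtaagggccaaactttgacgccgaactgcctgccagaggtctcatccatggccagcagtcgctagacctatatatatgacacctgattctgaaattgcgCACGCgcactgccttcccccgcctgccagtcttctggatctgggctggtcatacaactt
Slc2a1, chr4:119108495-119108740: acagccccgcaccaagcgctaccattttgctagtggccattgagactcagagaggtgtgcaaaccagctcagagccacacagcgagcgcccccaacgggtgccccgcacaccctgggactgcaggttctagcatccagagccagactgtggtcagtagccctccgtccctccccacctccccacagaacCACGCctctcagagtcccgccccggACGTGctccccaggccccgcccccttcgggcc
Slc16a1, chr3:104638414-104638663: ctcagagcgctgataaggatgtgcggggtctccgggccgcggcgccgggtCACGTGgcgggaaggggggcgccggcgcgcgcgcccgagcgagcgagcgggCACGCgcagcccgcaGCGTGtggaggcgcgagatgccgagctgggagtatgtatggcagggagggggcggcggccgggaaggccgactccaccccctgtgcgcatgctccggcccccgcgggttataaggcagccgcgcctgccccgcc
The last 14 bases of the Slc16a3 window lie in an exon of a GENCODE transcript of the gene. The Slc2a1 window overlaps an exon by 34 bases, and its last 4 bases are not printed.

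In Slc16a3 the cores were 2 copies of ACGTG on the plus strand, beginning 27 and 14 bases before the start. Slc2a1 had ACGTG 36 bases before its start and GCGTG on the minus strand at 61 bases. The first Ldha window held 5 ACGTG matches, 4 of them in its 2 CACGTG copies at 145 and 48 bases before the start, and the second held 1 GCGTG. Slc16a1, which fell least among the called genes, held 4 matches, as did Pdk3, and the first window of Pdk1 held 1. At least 1 core was present in 9 of the 10 windows of the 8 genes, Ldhb and Mpc2 included, against 38.6% of all 32851 windows of the table. CACGTG was found in 2 genes, Slc16a1 and Ldha (6.02% of all windows) and TGATGNAA in 0 (3.45% of all windows). The windows of these genes were rich in G and C, with a median of 66.8% against 52.4% over all windows, and no allowance was made for that. A match is a stretch of letters and not a measure of binding.

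Lactate and pyruvate cross the plasma membrane through Slc16a3 (MCT4, known as an exporter of lactate from glycolytic cells) and Slc16a1 (MCT1, which carries lactate in either direction). Slc16a3 (ENSMUSG00000025161, chr11:120948480-120960868, plus strand) had 55.7, 54.7, 54.0 and 47.6 normalised CPM in control replicates 1 to 4 and 30.8, 32.8, 35.1 and 29.5 in conditioned replicates 1 to 4. The lowest control culture was well above the highest conditioned culture. The mean went from 53.0 ± 3.65 to 32.04 ± 2.41 (SD, n = 4 each). The log2 fold change was -0.73 (SE 0.05, adjusted p = 1.44e-10 by edgeR), and the level fell by 39.5%. This fall was the 37th largest of the 10729 tested genes and the 8th largest among those averaging 5 CPM or more.

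Slc16a1 (ENSMUSG00000032902, chr3:104638668-104658462, plus strand) had 270.8, 289.4, 264.9 and 263.1 normalised CPM in control medium and 260.8, 258.2, 260.6 and 245.9 in conditioned medium. Control replicate 2 was the highest of all and conditioned replicate 4 the lowest, and the other 6 cultures lay within 258.2 to 270.8. Its mean went from 272 ± 12 to 256.4 ± 7.06, with a fold change of -0.09 in log2 (SE 0.03, adjusted p = 0.0312 by edgeR). That call was lost without control replicate 2 (-0.05, adjusted p = 0.131) or conditioned replicate 4 (-0.07, 0.11), and also without control replicate 1 (0.0654) or conditioned replicate 1 (0.0513) or 2 (0.0618).

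Basigin (Bsg, also CD147) is the partner that both of these transporters need to reach the cell surface. Bsg (ENSMUSG00000023175, chr10:79704491-79711969, plus strand) was at 235.2, 248.8, 223.4 and 241.2 normalised CPM in control medium and at 210.6, 207.7, 214.6 and 212.8 in conditioned medium. The conditioned cultures spanned a narrow range below every control culture. The means were 237.1 ± 10.7 and 211.4 ± 2.98. The log2 fold change was -0.17 (SE 0.03, adjusted p = 8.13e-05 by edgeR), and the level fell by 10.9%.

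Within each culture the ratio of Slc16a3 to its relatives also shifted, a measure that does not depend on how libraries are scaled. The log2 ratio of Slc16a3 to Slc16a1 counts was -2.36 ± 0.09 in control medium and -3.00 ± 0.09 in conditioned medium (SD, n = 4 each), a difference of -0.64 (two-sided exact permutation test, p = 0.0286, adjusted p = 0.0381 over 4 ratios). The log2 ratio of Slc16a3 to Bsg differed by -0.56 (-2.16 ± 0.13 against -2.72 ± 0.11; exact p = 0.0286, adjusted p = 0.0381). The media did not overlap in either ratio, and 0.0286 is the smallest p that 4 against 4 samples allow. Per length of exon, Slc16a3 made up 13.9% ± 0.737 of the summed level of the 2 transporters in control medium and 9.41% ± 0.505 in conditioned medium. With the length of the principal transcript in place of all exons, it made up 16.6% ± 0.85 and 11.3% ± 0.593.

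**Figure D2:**
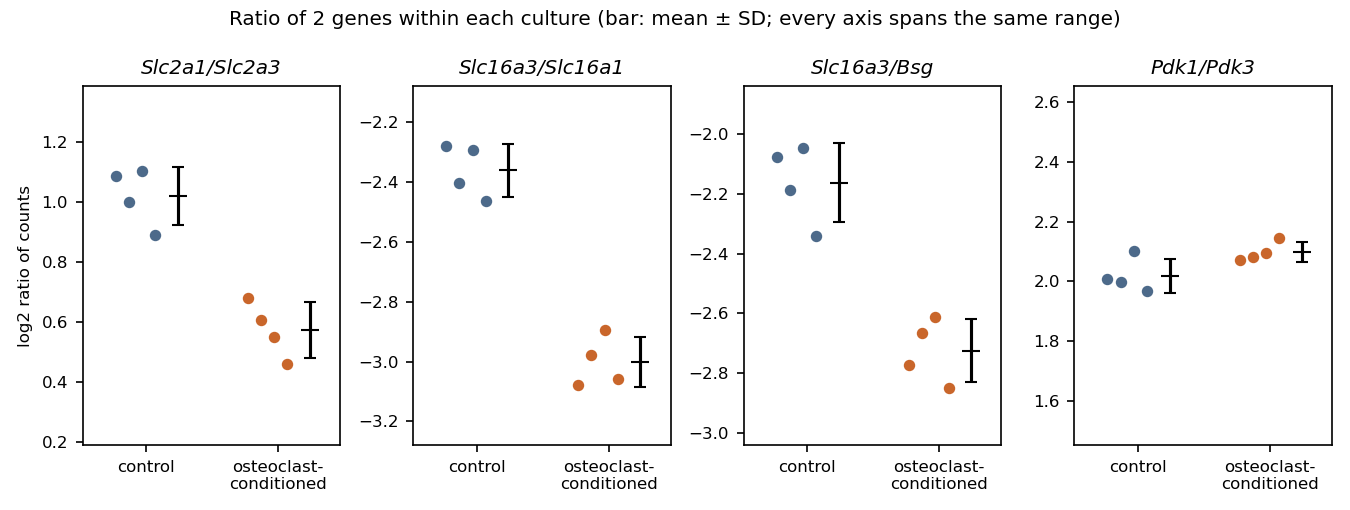
Log2 ratio of counts of 2 genes within a culture (vertical axes, all with the same span) in control and osteoclast-conditioned medium; points are cultures, bars the mean with the SD of 4. The media are apart for Slc2a1/Slc2a3, Slc16a3/Slc16a1 and Slc16a3/Bsg, by -0.45, -0.64 and -0.56, and overlap for Pdk1/Pdk3.

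Genes with a pattern like that of Slc16a3 were looked for among 9032 genes (mean over all cultures 5 CPM or more), by the root mean square difference of log2 CPM, each gene centred on its own mean over the 8 cultures. The 5 nearest were Ache (0.088), Tpi1 (0.099), Enpp6 (0.107), Egln3 (0.120) and Sdf2l1 (0.120). All 5 were called lower, with log2 fold changes of -0.77, -0.63, -0.79, -0.54 and -0.53 in that order. The measure includes the size of the change, so genes that fell by about as much as Slc16a3 come first.

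Glucose enters through Slc2a1 (GLUT1, the transporter of most proliferating cells) and Slc2a3 (GLUT3, known for a high affinity for glucose). Slc2a1 (ENSMUSG00000028645, chr4:119108711-119137983, plus strand) had 106.2, 104.6, 99.8 and 87.5 normalised CPM in control medium and 84.0, 77.4, 76.8 and 72.5 in conditioned medium. Control replicate 4, the lowest control culture, was just above the highest conditioned culture, and the other control cultures were further away. The mean went from 99.5 ± 8.47 to 77.7 ± 4.75 (SD, n = 4 each). The log2 fold change was -0.36 (SE 0.06, adjusted p = 0.000818 by edgeR), and the level fell by 21.9%. Among all tested genes, 2.26% were called with a fall at least as large.

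Slc2a3 (ENSMUSG00000003153, chr6:122727809-122801640, minus strand) had 49.98, 52.3, 46.4 and 47.2 normalised CPM in control medium and 52.4, 50.8, 52.5 and 52.7 in conditioned medium. The conditioned cultures lay close together, and control replicate 2 was among them. The means were 49.0 ± 2.67 and 52.1 ± 0.897, and the log2 fold change of 0.09 (SE 0.04) did not pass the test (edgeR adjusted p = 0.133). Without control replicate 2 it did (log2 fold change 0.12, adjusted p = 0.0279).

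The balance of the 2 glucose transporters differed between the media. The log2 ratio of Slc2a1 to Slc2a3 counts was 1.09, 1.00, 1.104 and 0.89 in control medium and 0.68, 0.61, 0.55 and 0.46 in conditioned medium, with no overlap. Its mean differed by -0.45 (1.02 ± 0.10 against 0.57 ± 0.09; two-sided exact permutation test, p = 0.0286, adjusted p = 0.0381 over 4 ratios). Per length of exon, Slc2a1 held 80.7% ± 1.07 of the summed level of these 2 genes in control medium and 75.5% ± 1.2 in conditioned medium. The share depends on the length used. With the length of the principal transcript in place of all exons it was 71.1% ± 1.41 and 64.4% ± 1.485.

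Lactate dehydrogenase was represented by Ldha alone. Ldha encodes the subunit that favours the formation of lactate from pyruvate, and Ldhb the subunit that favours the reverse reaction. Ldha (ENSMUSG00000063229, chr7:46841475-46855627, plus strand) had 1473, 1635, 1404 and 1452 normalised CPM in control medium and 1171, 1123, 1182 and 1095 in conditioned medium. All conditioned cultures lay below all control cultures. The mean went from 1491 ± 100.3 to 1143 ± 40.8 (SD, n = 4 each). The log2 fold change was -0.38 (SE 0.04, adjusted p = 8.48e-06 by edgeR), and the level fell by 23.4%. By counts Ldha was the 34th most abundant gene in control medium and the 62nd in conditioned medium. Ldha has near-identical processed copies elsewhere in the genome, and the treatment of reads that map to several places is not given in the sources used here, so its level is uncertain to that extent.

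Ldhb (ENSMUSG00000030246, chr6:142490249-142507957, minus strand) had 0, 0, 0 and 1 counts in control medium and 3, 0, 2 and 0 in conditioned medium, 6 in all. With so few counts, no difference between media was detectable at this depth. In the 5 libraries with 0 counts of Ldhb, set against the 3 counts that a 0 allows and per length of exon, Ldha was at least 2965.1-fold (conditioned replicate 2) to 5603.9-fold (control replicate 2) higher than Ldhb. The ratio of Ldha to Ldhb was therefore not compared between media.

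Pyruvate dehydrogenase kinases hold pyruvate back from oxidation. Pdk1 (ENSMUSG00000006494, chr2:71873224-71903858, plus strand) was at 227.0, 236.8, 227.3 and 220.2 normalised CPM in control medium and at 211.2, 208.7, 207.9 and 208.9 in conditioned medium. The 4 conditioned cultures were nearly alike, and all were below the lowest control culture. The means were 227.8 ± 6.82 and 209.2 ± 1.42 (SD, n = 4 each). The log2 fold change was -0.12 (SE 0.03, adjusted p = 0.00102 by edgeR), and the level fell by 8.2%.

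Pdk3 (ENSMUSG00000035232, chrX:93764607-93832201, minus strand) had 56.4, 59.2, 53.0 and 56.3 normalised CPM in control medium and 50.3, 49.3, 48.6 and 47.2 in conditioned medium. Again the media did not overlap. The means were 56.2 ± 2.57 and 48.9 ± 1.29. The log2 fold change was -0.21 (SE 0.04, adjusted p = 0.000314 by edgeR), and the level fell by 13.3%. The log2 ratio of Pdk1 to Pdk3 counts was 2.02 ± 0.06 in control medium and 2.10 ± 0.03 in conditioned medium. Its difference of 0.08 did not pass the test (two-sided exact permutation test, p = 0.114, adjusted p = 0.114), and without control replicate 3 it was 0.11 with an adjusted p of 0.0286. The other kinases, Pdk2 and Pdk4, had at most 1 count in any library.

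Mpc2 encodes a subunit of the mitochondrial pyruvate carrier, which works together with Mpc1. Mpc2 (ENSMUSG00000026568, chr1:165460637-165481214, plus strand) had 15.6, 14.4, 16.5 and 15.1 normalised CPM in control medium and 12.8, 13.8, 13.7 and 14.99 in conditioned medium. Conditioned replicate 4 lay above control replicate 2. The means were 15.4 ± 0.872 and 13.9 ± 0.891, and the log2 fold change of -0.15 (SE 0.07) did not pass the test over all genes (edgeR adjusted p = 0.104). Its partner Mpc1 had 23.8 ± 0.737 and 25.6 ± 1.87 normalised CPM (log2 fold change 0.10, SE 0.06, adjusted p = 0.178), and was called higher without conditioned replicate 2 (0.16, adjusted p = 0.0442).

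Levels were compared between genes as normalised CPM per kb of exon, over all exons annotated for the gene. Of 502 listed genes inside the span of another and sharing no exon with it, 501 had 0 counts in all libraries. Reads may thus not have been counted over exons alone, which was not tested. All values per length given here and above are uncertain to that extent. In control medium Ldha stood first at 450.5 ± 30.3, followed by Bsg at 130.7 ± 5.90 and Slc16a1 at 61.5 ± 2.71 (SD, n = 4). Pdk1 (29.3 ± 0.877) and Slc2a1 (28.4 ± 2.42) came next and did not differ beyond their spread with this length. Pdk3 (21.96 ± 1.00), Slc16a3 (9.97 ± 0.687), Slc2a3 (6.76 ± 0.369) and Mpc2 (2.10 ± 0.119) followed, and Ldhb was last. In osteoclast-conditioned medium Slc16a3 (6.03 ± 0.453) lay below Slc2a3 (7.19 ± 0.124), the reverse of the control order, and Pdk1 (26.9 ± 0.182) was further from Slc2a1 (22.2 ± 1.36). The lower places depend on the length used. With the length of the principal transcript in place of all exons, an alternative chosen after seeing the data, Mpc2 moved from 9th to 7th (15.05 ± 0.851 per kb in control medium, since 7344 bases of exon become 1025), Slc16a3 moved from 7th to 9th (12.2 ± 0.843), and Slc2a3 stood at 12.4 ± 0.675. Slc16a3 and Slc2a3 then did not differ beyond their spread in control medium. Pdk1 (43.94 ± 1.315) and Slc2a1 (30.54 ± 2.598) kept their places with that length but were further apart than over all exons.

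**Figure D3:**
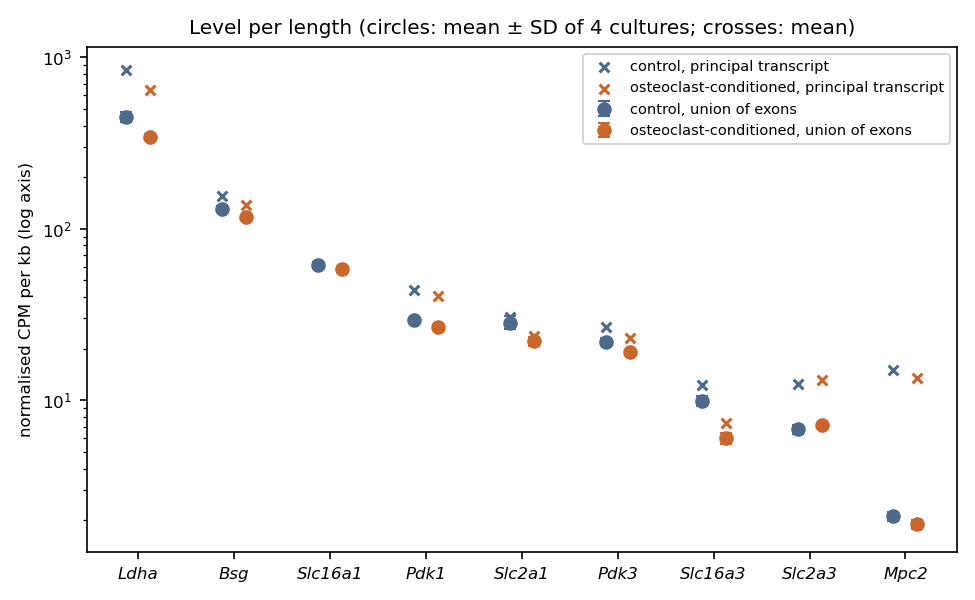
Normalised CPM per kb (vertical axis, logarithmic) of the 9 genes that passed the filter, in order of their control level over all exons. Circles are means over all exons with the SD of 4 cultures, which is mostly smaller than the symbol; crosses are means with the principal transcript's length, which lie under the circles for Slc16a1. Ldha is highest at 450.5 in control medium, and Mpc2 is lowest over all exons but not with the other length.

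Within a medium, the same cultures were often at the ends of the range. Control replicate 2 was the highest control culture in 6 of the 9 genes, and conditioned replicate 4 was the lowest conditioned culture in 5 of 9. Leaving out either of them left 6 of the 7 genes called lower, Slc16a1 being the gene lost.

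Most of the remaining transporters of these families did not pass the filter on low counts. Of 12 other glucose transporter genes, 4 passed the filter, with 1 called higher (15.7% of all tested genes were). Slc2a9 (GLUT9, known as a carrier of urate) rose from 74.7 ± 2.32 to 83.0 ± 3.11 normalised CPM (log2 fold change 0.15, SE 0.04, edgeR adjusted p = 0.00237). Slc2a5, Slc2a6 and Slc2a8 had log2 fold changes of -0.12 (SE 0.28), 0.12 (SE 0.14) and 0.04 (SE 0.12), at levels of at most 5.2 normalised CPM on average. The insulin-responsive transporter Slc2a4 had at most 1 count per library and Slc2a2 had 0.

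Of 15 other monocarboxylate carriers and partners, 5 passed the filter, and 0 were called by edgeR, DESeq2 or limma-voom (0 also at an unadjusted p under 0.05 with edgeR), where edgeR called 30.5% of all tested genes in either direction. Slc16a6 had 49.1 ± 1.06 and 48.4 ± 1.71 normalised CPM (log2 fold change -0.02, SE 0.04), and 22.5% of its exon length overlaps other listed genes. Emb (embigin), another partner protein of monocarboxylate transporters, had 66.0 ± 2.53 and 64.8 ± 3.46 (log2 fold change -0.03, SE 0.04). Slc16a4, Slc16a11 and Slc16a13, at 6.79 normalised CPM or less, had log2 fold changes of -0.16 (SE 0.18), -0.22 (SE 0.30) and -0.16 (SE 0.11). Slc16a7, which encodes MCT2, had 0 counts in all libraries. Slc16a8 also had 0 counts, and its span lies inside that of another listed gene with which it shares no exon. Of 502 listed genes placed in that way, 501 (99.8%) had 0 counts in all libraries, against 27.6% of the genes not inside another, so its 0 is not read as absence.

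Among 15 other enzymes and carriers of lactate and pyruvate, 8 passed the filter, with 3 called higher by edgeR, beside 15.7% of all tested genes. The number called lower was 0 by edgeR, DESeq2 and limma-voom (1 at an unadjusted p under 0.05 in edgeR, and 1 called by edgeR without conditioned replicate 1). Gpt2, the mitochondrial alanine aminotransferase that interconverts pyruvate and alanine, rose most. It had 72.8, 73.6, 65.5 and 74.7 normalised CPM in control medium and 127.0, 121.4, 129.0 and 124.2 in conditioned medium, with a fold change of 0.81 in log2 (SE 0.04, adjusted p = 2.02e-16 by edgeR). Every conditioned culture was far above every control culture. Pcx, the carboxylase that turns pyruvate into oxaloacetate, rose from 105.2 ± 4.56 to 117.9 ± 4.30 (log2 fold change 0.16, adjusted p = 0.000567). Pdpr, a regulatory subunit of the pyruvate dehydrogenase phosphatase, had a log2 fold change of 0.15 (adjusted p = 0.0268). That call was lost without control replicate 1 or 3 or conditioned replicate 1, 2 or 3 (adjusted p from 0.0512 to 0.16), with DESeq2 (0.053) and with total counts only (0.0555). Ldhc had at most 3 counts and Ldhd at most 5 per library.

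In the pyruvate dehydrogenase complex and the enzymes that attach its lipoic acid, genes were called in either direction. Of 7 genes tested, Pdha1 (the subunit that the kinases phosphorylate) and Dld were called higher and Lipt2 lower (15.7% and 14.8% of all tested genes were), with a median log2 fold change of -0.02 over the 7. Pdha1 rose from 196.6 ± 6.22 to 216.4 ± 5.62 normalised CPM (log2 fold change 0.14, SE 0.03, edgeR adjusted p = 0.000586), and 16.1% of its exon length overlaps another listed gene. Dld, the dihydrolipoamide dehydrogenase subunit, had a log2 fold change of 0.10 (adjusted p = 0.0225), a call lost without control replicate 1 or 3 or conditioned replicate 1, 2 or 3 (0.055 to 0.093). Lipt2, which takes part in attaching lipoic acid, had 4.39 ± 0.263 and 3.33 ± 0.356 normalised CPM (log2 fold change -0.39, SE 0.13, adjusted p = 0.021), a call lost without control replicate 4 (0.0612) or conditioned replicate 4 (0.0742).

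**Figure D4:**
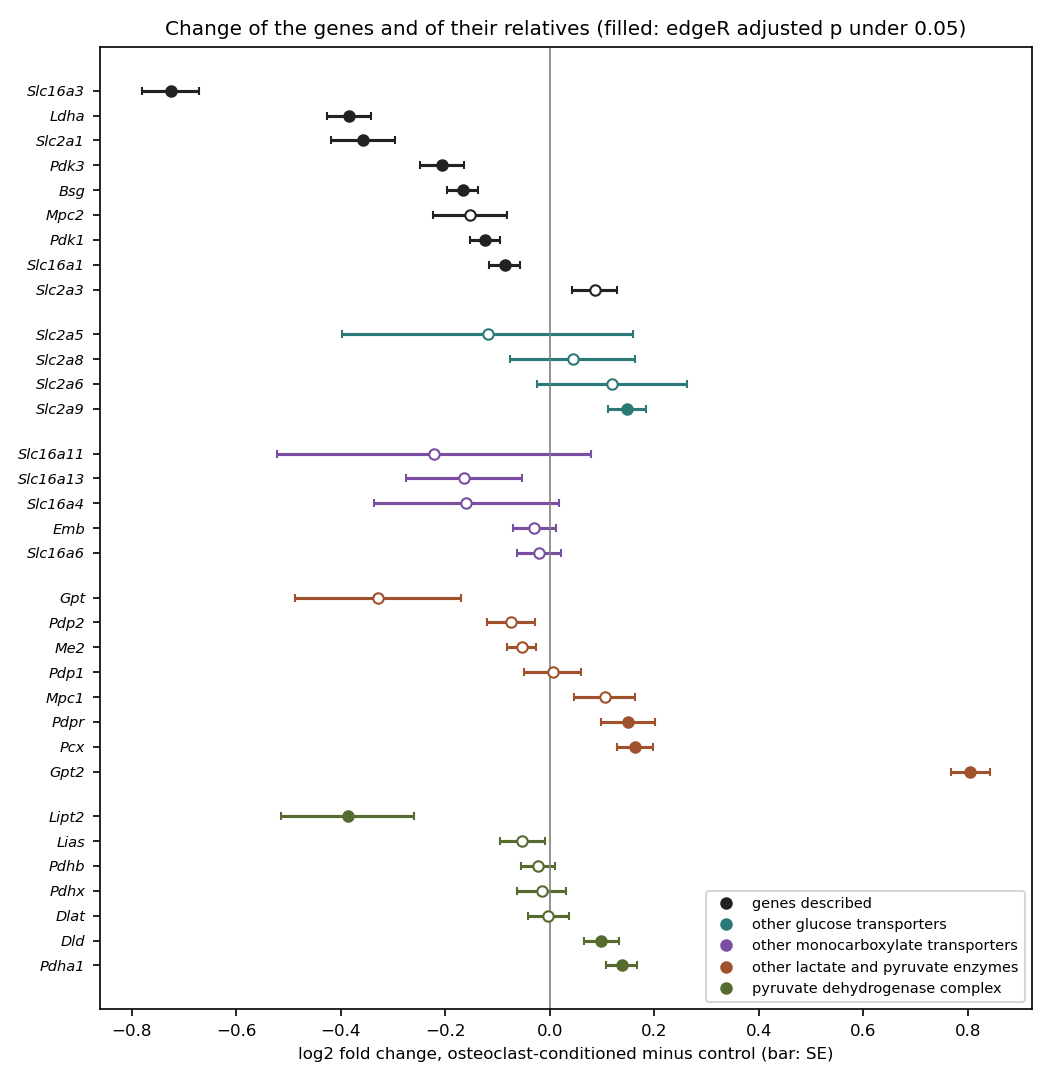
Log2 fold change (horizontal axis, osteoclast-conditioned minus control; bars are standard errors) of the 9 genes and of the tested genes of 4 related lists. Filled points have an edgeR adjusted p under 0.05; Slc16a3 at -0.73 and Gpt2 at 0.81 are the ends of the range shown.

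Upstream of pyruvate, 12 of 20 tested glycolytic enzymes were called lower (14.8% of all tested genes were) and 1 higher, with a median log2 fold change of -0.14 (-0.01 over all tested genes). Tpi1, which interconverts the triose phosphates, fell from 408.2 ± 26.4 to 263.9 ± 11.4 normalised CPM (log2 fold change -0.63, SE 0.04, edgeR adjusted p = 4.71e-08). Aldoa, the aldolase that yields those triose phosphates, fell by 0.49 (SE 0.08, adjusted p = 0.00386) and Pgk1, the first of the steps that return ATP, fell by 0.46 (SE 0.07, adjusted p = 0.00229) on the log2 scale. The enzyme called higher was Pfkfb3, which makes the activator of phosphofructokinase (log2 fold change 0.15, adjusted p = 0.000889), named here because it stood alone.

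Downstream, in the citrate cycle, 6 of 17 genes were called lower, beside 14.8% of all tested genes, and 0 higher (0 also by DESeq2, limma-voom and at an unadjusted p under 0.05), with a median log2 fold change of -0.05. Its largest called changes were those of Idh3a (-0.14), Sdhd (-0.13) and Suclg1 (-0.11), the last lost without control replicate 4 (adjusted p = 0.0586). In the shuttles that carry NADH equivalents, which share Mdh2 with that list, 2 of 8 were called lower, beside 14.8% of all tested genes, and 0 higher (0 also by DESeq2, limma-voom and at an unadjusted p under 0.05). Mdh1, the cytosolic malate dehydrogenase, fell from 150.9 ± 7.36 to 130.3 ± 5.58 normalised CPM (log2 fold change -0.21, SE 0.04, edgeR adjusted p = 3.58e-05), and Gpd1l had a log2 fold change of -0.10 (adjusted p = 0.0212). The call of Gpd1l was lost without control replicate 2 or 4 or conditioned replicate 4 (0.0508 to 0.0862), and without conditioned replicate 1 the shuttles had 4 called lower.

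Among 21 tested regulators of these genes, 5 were called higher and 3 lower, beside 15.7% and 14.8% of all tested genes. Foxo1, a transcription factor restrained by insulin signalling, rose from 149.8 ± 1.74 to 198.1 ± 4.12 normalised CPM (log2 fold change 0.40, SE 0.03, edgeR adjusted p = 3.26e-12). Txnip, which draws glucose transporters back from the cell surface, had 149.6, 154.9, 149.5 and 149.0 normalised CPM in control medium and 178.7, 182.8, 178.1 and 182.0 in conditioned medium (log2 fold change 0.26, SE 0.03, adjusted p = 2.82e-08). Every conditioned culture was above every control culture for Txnip, the opposite order to Slc2a1. A link between these genes was not tested. Egln3, an oxygen-dependent prolyl hydroxylase that is itself a target of hypoxia-inducible factor, fell from 30.8 ± 3.19 to 21.2 ± 0.834 (log2 fold change -0.54, SE 0.06, adjusted p = 1.82e-07). The other called regulators, named after their values were seen, were Mycn (0.21), Foxo3 (0.18) and Mtor (0.13), which were higher, and Stk11 (-0.13) and Myc (-0.11), which were lower. Myc was not called without control replicate 1 or 4 or conditioned replicate 2 or 3 (adjusted p from 0.0501 to 0.06), and without control replicate 3 the number called lower was 5. Hif1a, the oxygen-regulated subunit of hypoxia-inducible factor, had a log2 fold change of 0.07 (SE 0.04, adjusted p = 0.177).

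**Figure D5:**
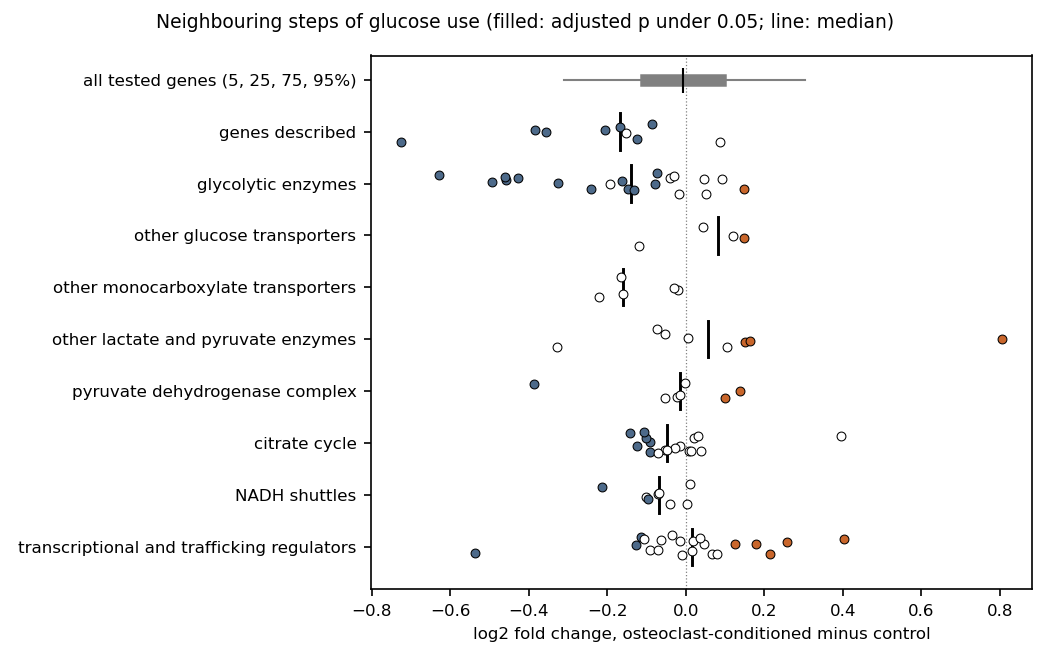
Log2 fold change (horizontal axis, osteoclast-conditioned minus control) of every tested gene in the 9 genes described and in 8 related lists. Each point is a gene, spread vertically only for legibility, filled where the edgeR adjusted p was under 0.05 (blue lower, orange higher); vertical lines are medians, and the grey bar at the top gives the middle of all tested genes. Medians are -0.17 for the genes described, -0.14 for glycolytic enzymes and -0.05 for the citrate cycle.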

How the data were processed

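A column kit was used for RNA and SureSelect HS2 for libraries, per the labels' protocols. The authors deposited 1 table of raw counts, whole numbers for each Ensembl gene ID. The submitters' processing notes name STAR 2.7.5a, featureCounts 2.0.1 and mm10; the annotation, strand setting and treatment of multi-mapped reads are not given in the sources used here. Columns were matched to samples by their number, and 0 were left unmatched.

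Of the gene IDs, 21817 of 21859 matched GENCODE M21. Counts were filtered (filterByExpr), scaled (TMM) and tested with edgeR 4.0.16 (glmQLFit, robust; R 4.3.3) with medium as the term, and p-values were adjusted by Benjamini-Hochberg over 10729 genes. Standard errors are the absolute log2 fold change divided by the square root of F. Ratios used a pseudocount of 0.5 and exact permutation over 70 assignments. The ratio of Ldha to Ldhb, also planned, was left out because Ldhb is at the floor of 3 counts, so 4 ratios were adjusted together.

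The members and lists were chosen with earlier results of these data known. Named genes are the 10 members, up to 3 called genes with the largest absolute change in each list, tested genes of the families of the members, and the 5 genes most like Slc16a3; others are named as chosen after their values were seen, with those that make up a marker sum. Alternatives were DESeq2 1.42.0, limma-voom (limma 3.58.1), other scalings and filters, the replicate block, a fit that is not robust, thinning to 15391754 counts, a threshold of 0.01 and leaving out each sample. Exact tests, annotation and plots used scipy 1.17.1, pandas 2.3.3 and matplotlib 3.10.9 under Python 3.11.15. No batch is named in the labels, so no comparison was repeated within batches. Part of the B-lineage marker list is not reported here.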

Additional observations from a re-analysis of the deposited data

Results flagged for a closer look

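In osteoclast-conditioned replicate 2, Slc2a3 had 50.8 normalised CPM (50.77), while the other 3 conditioned cultures had 52.45 to 52.74. The gap to the nearest culture, divided by the range of the 4, was 0.849, above Dixon's 95% critical value for 4 values. Of 26 groups of 4 cultures examined, this was the only 1 past that value, where chance gives about 1.3.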

How the results depend on the processing

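Over 19 alternatives, between 6 and 7 of the 9 genes were called lower. Slc2a1, Slc16a3 (log2 fold change -0.77 to -0.69), Bsg, Ldha, Pdk1 and Pdk3 were called lower in all 19, and Mpc2 in none. Slc16a1 lost its call in 8, among them DESeq2 (adjusted p = 0.0502), thinned counts (0.0502) and the threshold of 0.01, and its log2 fold change ran from -0.11 to -0.05. The number called higher was 0 to 1 when a sample was left out, the 1 being Slc2a3. With total counts only, 1383 genes (40.7% of those called) were higher and 2012 lower over the whole table, against 51.6% higher with TMM, and none of the 9 genes changed direction.

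Replicate numbers are shared by the media, but deviations of same-numbered samples correlated only at -0.05 to 0.14, so the numbers were not taken as pairs. With the replicate block 3446 genes were called in place of 3273, and the 7 called members stayed called. In the block the ratios Slc2a1/Slc2a3 (-0.446), Slc16a3/Slc16a1 (-0.641) and Slc16a3/Bsg (-0.562) had an adjusted p of 0.167, since the smallest exact sign-flip p for 4 pairs is 0.125. Pdk1/Pdk3 ran from 0.062 to 0.107 when a sample was left out.

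List counts moved as follows, and the cause was not tested. Total counts only gave 1 lower in place of 0 for other lactate and pyruvate enzymes, 1 higher in place of 2 for the pyruvate dehydrogenase complex, 4 lower in place of 2 for the shuttles and 5 lower in place of 3 for regulators. Upper quartile scaling gave 4 for the shuttles and 5 for regulators, and the replicate block gave 4 for the shuttles. DESeq2 gave 0 lower for the pyruvate dehydrogenase complex. At an adjusted p under 0.01 the complex had 0 lower and 1 higher, the citrate cycle 3 lower and the shuttles 1 lower. Leaving out a sample gave 0 to 1 lower for other lactate and pyruvate enzymes, 0 to 1 lower and 1 to 2 higher for the complex, 1 to 4 lower for the shuttles and 2 to 5 lower for regulators. Some values near 0 changed sign: Slc16a6 ran from -0.037 to 0.007 (without conditioned replicate 1) and Emb from -0.054 to 0.005 (without conditioned replicate 4). Over all alternatives the number called lower was 9 to 12 for glycolytic enzymes and 3 to 8 for the citrate cycle (8 with total counts only), and 2 to 4 other lactate and pyruvate enzymes were called higher. Depth limits Ldhb, at a few counts, and also small changes: among the named genes, thinning ended the calls of Slc16a1 and Suclg1.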
